A study of Mus musculus with 8 samples.

Results

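Lymphoid priming is the low-level activity of lymphocyte genes in stem and progenitor cells that have not yet chosen a lineage. In bone marrow it is seen as transcripts of early lymphoid transcription factors, which open lymphocyte gene programmes, and later as transcripts of the recombination machinery and of cytokine receptors that committed B- and T-cell progenitors need. Haematopoietic stem cells (HSCs) are known to carry many of the transcription factors and little of the later genes.

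The genes described here are 10 that act in this programme, taken by symbol from a table of read counts. They are the receptors Il7r and Notch1, the early factors Ikzf1, Tcf3 and Satb1, the B-lineage factors Ebf1 and Bcl11a, the T-lineage factor Gata3, the enzyme Dntt and the kinase Lck. Of the 10 genes, 8 had a row among the 22065 named genes of the table, and 7 passed the filter on low counts. Il7r and Ebf1 had no row and were not analysed here, and the table's lowest row sum was 11 counts over the 8 libraries.

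The 8 RNA-seq libraries compare HSCs that lost Mitol, which encodes a ubiquitin ligase of the mitochondrial outer membrane, with HSCs that kept it. The Mitol KO group holds 4 libraries from Mitol Flox/Flox mice that carry MX1-cre, a recombinase driven by an interferon-inducible promoter, and the control group holds 4 from Mitol Flox/Flox mice without cre. All mice were C57BL/6 aged 8 to 10 weeks, and both groups received Poly:IC, itself an inducer of interferon, 1 week before the cells were taken. For each library 100 cells were sorted from bone marrow as CD150+ CD48- EPCR+ and negative for lineage markers, among them CD4, CD8a and B220. The paper's definition of long-term HSCs also requires c-Kit, the product of Kit. The labels do not say whether the libraries come from separate mice, so the p-values measure the spread between these samples, which may be technical. In sorted pools, fewer cells that express a gene and less RNA per cell cannot be told apart.

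Counts on named genes summed to between 7214935 and 12398138 per library. The targeted gene Marchf5 had 276, 232, 308 and 281 normalized counts in Mitol KO replicates 1 to 4 and 299, 312, 333 and 262 in control replicates 1 to 4, where normalized counts are counts divided by a size factor per library. Its log2 fold change was -0.15 (SE 0.13, edgeR adjusted p = 0.498), and counts per gene do not separate deleted from remaining exons, so this gene did not check the labels. Of 16444 tested genes, 1386 (8.43%) had an adjusted p under 0.05 in edgeR's quasi-likelihood test, 770 (4.68%) higher and 616 (3.75%) lower in Mitol KO HSCs. The higher share of these calls was 55.6%, and 41.3% under upper quartile scaling, which gave 594 higher among 1439 calls and moved the median log2 fold change of all genes from -0.02 to -0.08.

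The promoters of Dntt, Lck and Notch1 are shown because they belong to the 3 members that differed most between the groups. Dntt had the widest difference, Lck had groups that did not overlap in normalized counts, and Notch1 had the lowest p-value of the tested members. Each window holds the 250 bases upstream of the canonical start in GENCODE vM39 on GRCm39, is written in the direction of the gene, and has motif matches in capitals. The motifs searched on both strands were CAGGTG, an E-box bound by E proteins such as the product of Tcf3, TGGGAA, a core shared by Ikaros factors and RBPJ, AGATAA, bound by GATA factors, and the EBF1 motif, searched as TCCC and GGGA with any 2 bases between them. TGGGAA can overlap the end of the EBF1 motif.
Dntt, chr19:41017464-41017713, plus strand: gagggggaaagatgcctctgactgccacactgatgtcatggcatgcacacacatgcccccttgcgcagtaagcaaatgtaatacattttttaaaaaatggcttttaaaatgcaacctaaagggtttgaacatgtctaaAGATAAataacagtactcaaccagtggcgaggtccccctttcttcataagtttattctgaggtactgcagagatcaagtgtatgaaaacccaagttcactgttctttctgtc
Lck, chr4:129467435-129467684, minus strand: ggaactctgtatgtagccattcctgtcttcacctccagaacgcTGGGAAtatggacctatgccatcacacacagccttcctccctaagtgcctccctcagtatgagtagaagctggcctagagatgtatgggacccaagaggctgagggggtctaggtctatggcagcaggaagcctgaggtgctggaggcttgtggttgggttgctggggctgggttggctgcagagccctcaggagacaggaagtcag
Notch1, chr2:26393835-26394084, minus strand: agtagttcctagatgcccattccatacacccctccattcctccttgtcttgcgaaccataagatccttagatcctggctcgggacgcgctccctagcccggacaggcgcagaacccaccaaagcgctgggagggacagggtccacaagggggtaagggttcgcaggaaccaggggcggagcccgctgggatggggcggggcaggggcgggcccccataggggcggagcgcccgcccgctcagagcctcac

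The Dntt window held 1 match to AGATAA, 112 bases upstream of the start, and the Lck window 1 match to TGGGAA, 207 bases upstream. The Notch1 window held none of the 4 motifs, and neither did those of the other 7 of the 10 genes. Among 21770 promoters of the same length, 9.60% held AGATAA, 22.7% TGGGAA, 17.7% CAGGTG and 0.882% the EBF1 motif. The GC content was 41.6% in the Dntt window, 56.4% in that of Lck and 66.0% in that of Notch1. The Notch1 window lies within the annotated gene, because other annotated transcripts start farther upstream. A match is a description of these letters and not a sign of binding.

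Across the 8 genes with a row, Bcl11a had the highest level in control HSCs, and Dntt was at or near 0. On the scale of normalized counts per kilobase of annotated exon, control means were 369 ± 28.4 (SD, n = 4) for Bcl11a, 225 ± 10.999 for Ikzf1, 170 ± 14.3 for Notch1 and 159 ± 28.3 for Tcf3. The other 4 genes followed at 84.1 ± 13.7 for Gata3, 45.0 ± 2.35 for Lck, 18.8 ± 4.46 for Satb1 and 0.196 for Dntt. Over the 8 libraries, the ranges of neighbours in this order did not overlap between Bcl11a and Ikzf1, between Tcf3 and Gata3 and between Lck and Satb1. They overlapped between Ikzf1 and Notch1, Notch1 and Tcf3, Gata3 and Lck, and Satb1 and Dntt. In Mitol KO HSCs the order of the means was the same, from 382 ± 51.4 for Bcl11a to 18.8 ± 3.21 for Satb1, with a Dntt mean of 11.3 that rested on 2 libraries. The order also held when lengths were those of the longest transcript.

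**Figure D1:**
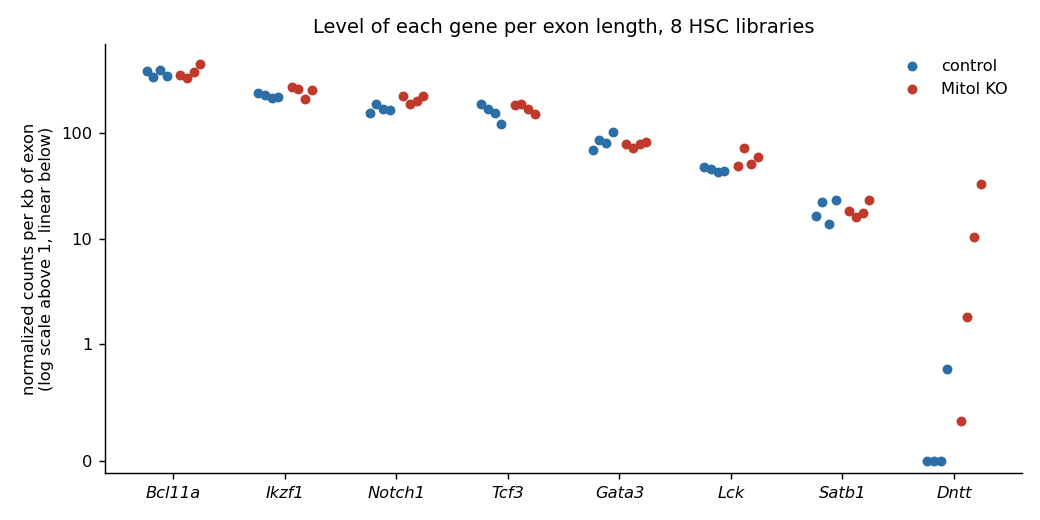
Normalized counts per kilobase of annotated exon (log scale above 1, linear below) for the 8 genes with a row, 1 point per library, control in blue and Mitol KO in red, ordered by control mean. Bcl11a lies highest, between 337 and 453, and Dntt lowest, from 0 to 32.8.

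None of the 7 tested members was past the threshold over all genes by edgeR, 0 higher and 0 lower, against 8.43% of all tested genes. At an unadjusted p under 0.05 there was 1 member, Notch1, against 26.4% of all tested genes. DESeq2 called 1 member, also Notch1, against 13.9% of all tested genes, and limma-voom called 0, against 8.35% of all tested genes (4.47% higher). Without a filter on low counts, edgeR called 1 of the 8 members with a row, Dntt, against 5.7% of the 22065 genes then tested (3.47% higher). Lck was the single tested member whose groups did not overlap in normalized counts, which was so in 15.4% of all tested genes and with Mitol KO HSCs higher in 8.17%. Its separation did not hold with TMM scaling, as given below. The 95% intervals of the members' log2 fold changes lay within -0.41 and 0.70, and all 7 estimates fell inside the range between the 5th and the 95th percentile of all tested genes, -0.87 to 0.71.

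**Figure D2:**
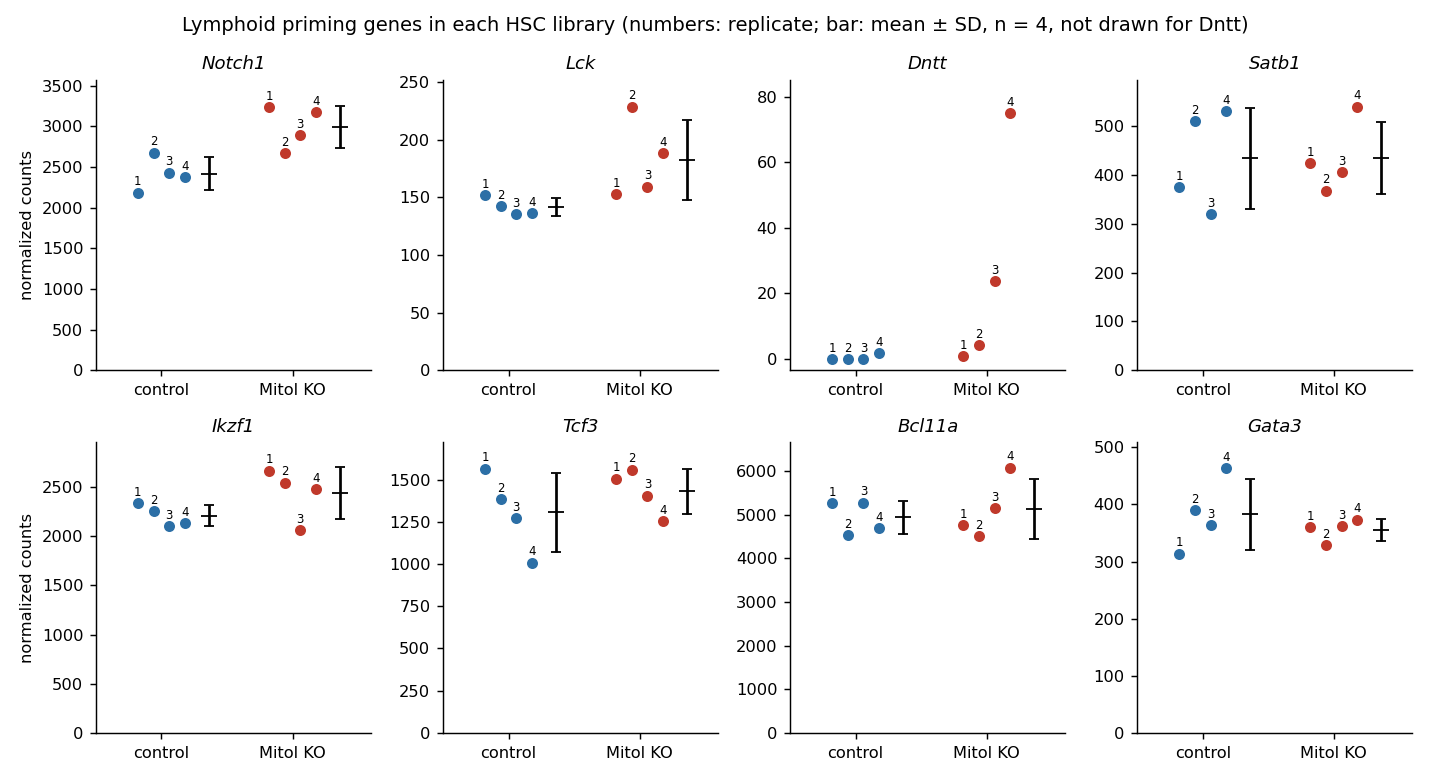
Normalized counts (y axis, from 0) of the 8 genes with a row in each library, with the replicate number over each point and the mean ± SD (n = 4) beside it, except for Dntt. Dntt is near 0 in the control libraries and reaches 23.8 and 75.1 in Mitol KO replicates 3 and 4, while Satb1, Ikzf1, Tcf3, Bcl11a and Gata3 overlap between the groups.

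Among the receptors, Notch1, which receives the signal that directs progenitors to the T-cell fate, lies on chromosome 2 of GRCm39 from 26347915 to 26406675 on the minus strand. Its normalized counts were 3233, 2671, 2894 and 3177 in Mitol KO replicates 1 to 4 and 2184, 2678, 2431 and 2377 in control replicates 1 to 4. Mitol KO replicates 1, 3 and 4 lay above every control library, and Mitol KO replicate 2 lay just under control replicate 2. The log2 fold change was 0.29 (SE 0.09, 95% interval 0.09 to 0.49), or a fold of 1.22 with an interval of 1.06 to 1.40. The quasi-likelihood test of edgeR gave an unadjusted p of 0.00808 and an adjusted p of 0.0689. DESeq2 gave a log2 fold change of 0.30 and an adjusted p of 0.0288. Over all 7 alternatives the adjusted p ran from 0.0288 to 0.143, and over the fits by edgeR that left out 1 library each from 0.0693 to 0.169, with a higher value in Mitol KO HSCs in every one of them. By a 2-sided exact permutation test of the normalized counts p was 0.0571, where 4 libraries against 4 cannot go below 0.0286.

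Of the annotated Notch1 exon bases, 14% are shared with the antisense lncRNA 0610009E02Rik, which had between 17.2 and 44.9 normalized counts over the 8 libraries. Whether strand was used in counting is not given in the sources used here, so reads of the 2 genes in the shared bases cannot be told apart. The gene Il7r, which encodes the receptor chain that lymphoid progenitors use to respond to interleukin 7, lies on chromosome 15 from 9505874 to 9530262 and had no row.

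Ikzf1, which encodes Ikaros, a zinc finger factor needed for lymphoid development, lies on chromosome 11 from 11634980 to 11723186. It had 2667, 2544, 2059.7 and 2482 normalized counts in Mitol KO replicates 1 to 4 and 2338, 2252, 2105 and 2135 in control replicates 1 to 4. Mitol KO replicates 1, 2 and 4 were above every control library and replicate 3 was below them all. The log2 fold change was 0.12 (SE 0.09, 95% interval -0.07 to 0.32, edgeR adjusted p = 0.409). Tcf3, which encodes the E proteins E12 and E47, lies on chromosome 10 from 80244046 to 80269594. It had 1506, 1559, 1404 and 1256 normalized counts in Mitol KO HSCs and 1564, 1382, 1273 and 1008 in control HSCs. The highest and the lowest Tcf3 values were both control libraries, and the log2 fold change was 0.11 (SE 0.12, 95% interval -0.15 to 0.38, edgeR adjusted p = 0.597).

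Satb1, a chromatin organiser known to favour lymphoid differentiation of HSCs, lies on chromosome 17 from 52043114 to 52140622. It had 424, 368, 406 and 539.6 normalized counts in Mitol KO HSCs and 375, 509.7, 319 and 531 in control HSCs. Its group means were 434 ± 74.0 and 434 ± 103 (SD, n = 4), and each group held both high and low libraries. The log2 fold change was -0.02 (SE 0.18, 95% interval -0.40 to 0.36, edgeR adjusted p = 0.965), an interval that leaves room for folds from 0.758 to 1.29. Satb1 varied most among control libraries of the 7 tested genes, with a coefficient of variation of 23.7%, and Ikzf1 least, with 4.88%.

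Of the lineage factors, Bcl11a, a repressor needed for B-cell development, lies on chromosome 11 from 24027941 to 24124123. It had 4751, 4511, 5142 and 6076 normalized counts in Mitol KO HSCs and 5255, 4536, 5275 and 4698 in control HSCs. Mitol KO replicate 4 was the highest library and the others lay among or just under the controls, with a log2 fold change of 0.03 (SE 0.10, 95% interval -0.19 to 0.26, edgeR adjusted p = 0.869). Gata3, the T-lineage GATA factor, lies on chromosome 2 from 9861889 to 9894845. It had 360.03, 328, 362 and 373 normalized counts in Mitol KO HSCs and 314, 391, 364 and 463 in control HSCs. All 4 Mitol KO libraries fell inside the range of the controls, and the log2 fold change was -0.13 (SE 0.13, 95% interval -0.41 to 0.16, edgeR adjusted p = 0.582). Ebf1, the factor that specifies the B lineage, lies on chromosome 11 from 44508138 to 44898918 and had no row.

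**Figure D3:**
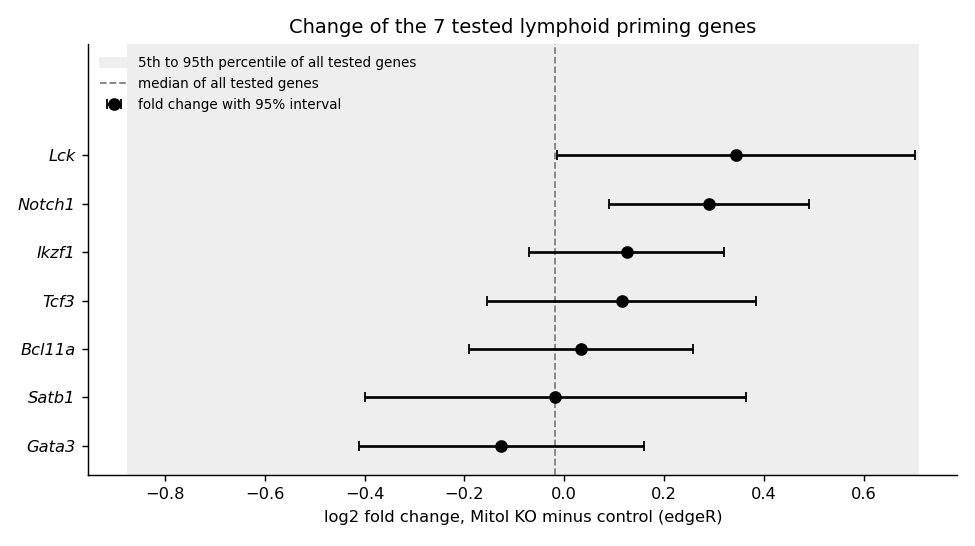
Log2 fold change of the 7 tested members (x axis, Mitol KO minus control, edgeR) with 95% intervals, over a grey band from the 5th to the 95th percentile of all tested genes and a dashed line at their median, -0.02. Only the interval of Notch1, 0.09 to 0.49, does not reach 0, before adjustment for the number of genes.

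Lck, a SRC family kinase that starts signalling from the T-cell receptor, lies on chromosome 4 from 129442137 to 129467434 on the minus strand. It had 153, 229, 159 and 188 normalized counts in Mitol KO replicates 1 to 4 and 152, 143, 136 and 137 in control replicates 1 to 4. The groups did not overlap in these normalized counts, but Mitol KO replicate 1 and control replicate 1 differed by 1 count after rounding, and Mitol KO replicate 2 stood highest. With the TMM scaling of the main test, control replicate 1 lay just above Mitol KO replicate 1. The separation therefore depends on the scaling. The log2 fold change was 0.34 (SE 0.16, 95% interval -0.01 to 0.70, edgeR p = 0.0585, adjusted p = 0.208), and the 2-sided exact permutation test gave p = 0.0286, the smallest it can give here. Mitol KO libraries varied with a coefficient of variation of 19.0% and control libraries with 5.22%.

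Dntt encodes terminal deoxynucleotidyl transferase, which adds bases without a template when immunoglobulin and T-cell receptor genes are joined. It lies on chromosome 19 from 41017714 to 41047964 on the plus strand. Its raw counts were 1, 4, 26 and 71 in Mitol KO replicates 1 to 4 and 0, 0, 0 and 2 in control replicates 1 to 4, which are 0.783, 4.16, 23.8 and 75.1 against 0, 0, 0 and 1.80 normalized counts. Mitol KO replicates 2 to 4 were above every control library, and replicate 1 was below control replicate 4. Replicate 4 held 69.6% of the counts of Mitol KO HSCs, and replicates 3 and 4 together held 95.1%.

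Dntt did not pass the filter on low counts and so has no value in the fit of the tested genes. Summed over libraries, it had 102 counts in Mitol KO and 2 in control HSCs, or 2.46 and 0.0563 CPM (counts scaled to the library total). The ratio of these rates was 43.8, with an exact 95% interval of 11.8 to 366. The interval takes each read as separate, covers the counting error of reads only and does not cover the spread between libraries. Without Mitol KO replicate 4 the sum was 31 counts and the ratio 17.1 (interval 4.35 to 148). The difference of mean normalized counts was 25.5 and had p = 0.0571 by the 2-sided exact permutation test. It was 9.13 without Mitol KO replicate 4, and 33.9 without Mitol KO replicate 1, where the exact permutation test gave p = 0.0286. Left out in turn, control replicates 1, 2 and 3 each raised p to 0.200 and control replicate 4 to 0.171 (exact permutation tests). Yet without control replicate 4 every Mitol KO library was above the controls, which all had 0 counts. With fewer controls, arrangements that put Mitol KO replicates 3 and 4 in the smaller group give a wider difference in means than the observed one. These rises in p therefore do not show that the difference rests on the controls. The fit by edgeR with no filter, over 22065 genes, put Dntt past the threshold at adjusted p = 0.0360, with a log2 fold change of 5.35 (SE 1.35) that depends on the prior count because 3 control libraries are at 0.

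Of the annotated Dntt exon bases, 22.7% are shared with Opalin and 14.2% with C330026H20Rik, both on the other strand, and neither has a row in the table. Summed markers of other cells are given for the 2 libraries with the most Dntt. Summed normalized counts of 8 red-cell markers were 3466 and 2202 in Mitol KO replicates 3 and 4, 978 and 1008 in replicates 1 and 2, and 392.4 to 782 in control HSCs. Neutrophil markers summed to 853 and 1023, above every other library, with 485 and 608 in Mitol KO replicates 1 and 2 and 405 to 616 in control HSCs. Megakaryocyte markers summed to 4330 and 5111, against 2396 and 3335 in Mitol KO replicates 1 and 2, so that replicate 3 fell inside and replicate 4 above the control range of 3186 to 4841. Gata1, the red-cell and megakaryocyte GATA factor, had 297 and 305 normalized counts there, against 114 and 131 in Mitol KO replicates 1 and 2. Summed B-cell markers, at 683 and 726 in replicates 3 and 4, lay within the range of 683 to 928 of control HSCs or just below it. T-cell markers summed to 1647 and 2010.2, against 1416 to 1534 in Mitol KO replicates 1 and 2 and 1634 to 1924 in control HSCs, and NK-cell markers to 315 and 405, against 230 to 333 and 127 to 173. Plasmacytoid dendritic markers summed to 2007 and 2274, against 2007 to 2171 in control HSCs, and mast-cell and basophil markers to 20.1 and 27.5, against 11.3 to 28.7. Several of these sums rest mostly on 1 gene that control HSCs also express. In Mitol KO replicates 3 and 4, Tcf4 had 1958 and 2210 normalized counts of the plasmacytoid sums, with a control mean of 2017. Btk had 533 and 577 of the B-cell sums (control mean 640). Vwf had 3074 and 3442 of the megakaryocyte sums (2890), within its control range of 2427 to 4059. Itga2b, another gene of that list, had 1111 and 1440 normalized counts in Mitol KO replicates 3 and 4, above every control library (519 to 589). It had 286 and 351 in Mitol KO replicates 1 and 2, while Pf4 of the same list was lower in Mitol KO HSCs. Lcp2 had 1032 and 1380 of the T-cell sums (1141). Such sums cannot tell other cells from HSC expression. The part of other cells in the Dntt counts was not tested.

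The sorted cells were checked against marker lists. HSC markers were at 25043 to 28848 summed normalized counts in Mitol KO and 36762 to 44045 in control HSCs. Among these 10 genes, 1 was called higher, 3 lower and 6 neither way, with a median log2 fold change of -0.24. Kit and Hlf, with control means of 11706 and 9505, were lower in Mitol KO HSCs past the threshold. Cd48, a gene whose protein the gate excludes, was higher, at 22.2 to 63.4 against 4.49 to 21.7 normalized counts. Slamf1, which encodes the gate marker CD150, had a log2 fold change of 0.56 (edgeR adjusted p = 0.0501, DESeq2 adjusted p = 0.0129). Its groups did not overlap in normalized counts, but with TMM scaling Mitol KO replicate 1 lay just below control replicate 2. For Ly6a the log2 fold change was 0.76 (edgeR adjusted p = 0.0605, DESeq2 adjusted p = 0.0117), and for Mecom -0.13 (edgeR adjusted p = 0.389). All 8 cell cycle genes were higher, but 1 was without Mitol KO replicate 2. Their sums were 16109, 15856, 11818 and 7497 in Mitol KO replicates 1 to 4, against 4928 to 7137 in control HSCs. Of 18 T-cell markers 10 had a row, Lck among them, and sums were 1416 to 2010.2 in Mitol KO and 1634 to 1924 in control HSCs. Thy1 was higher and Lat lower, while Cd3e, Cd3g and Cd8a had no row. Of 7 tested T-cell markers 1 was higher, 1 lower and 5 not called, with a median log2 fold change of -0.60. Cd247, Cd5, Cd4 and Lcp2 had log2 fold changes of -1.19, -0.75, -0.60 and -0.14. Of 12 B-cell markers 7 had a row and 0 of 2 tested were called, with Cd79a at 17.9 normalized counts or fewer in every library. Of 8 NK-cell markers 2 had a row, with sums of 230 to 405 against 127 to 173, and Nkg7 was higher. Among 8 plasmacytoid dendritic markers 3 had a row, and 0 of 2 tested were called. In the red-cell list Hbb-bt was higher, and in the megakaryocyte list Pf4 was lower. Mitol KO replicate 3 held 388 normalized counts of Hba-a1, an alpha globin gene, against at most 7.91 elsewhere, and without this library 520 genes in all and 0 members were past the threshold. Of 10 neutrophil markers 8 had a row and 0 of 2 tested were called, and most of the summed counts came from Prtn3, a serine protease gene. Prtn3 had 462, 573, 817 and 1006 normalized counts in Mitol KO and 566, 443, 333 and 332 in control HSCs (log2 fold change 0.76, edgeR adjusted p = 0.0674, DESeq2 adjusted p = 0.0161). S100a8 and S100a9 reached 51.2 and 21.3 normalized counts in control HSCs and at most 1.57 and 0 in Mitol KO HSCs. Neither passed the filter, and the fit by edgeR with no filter gave adjusted p of 0.0200 and 0.0158, both lower in Mitol KO HSCs. When each library was left out in turn, Kit, Hlf, Thy1 and Nkg7 kept their calls, and Cd48, Lat, Hbb-bt and Pf4 kept theirs in 2, 3, 3 and 5 of 8 fits. Of 8 mast-cell and basophil markers 2 had a row and 0 of 1 tested were called.

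Other genes of the same pathways are given by list, with the members included in their own lists. In the list of interleukin 7 and FLT3 receptor signalling, 1 of 9 tested genes was higher and 0 lower, with a median log2 fold change of 0.02 beside -0.02 over all tested genes. Il2rg, the common chain that pairs with the Il7r product, rose from 441.9 ± 19.7 to 762 ± 70.3 normalized counts (SD, n = 4), with a log2 fold change of 0.77 (SE 0.10, edgeR adjusted p = 0.00381). All 4 Mitol KO libraries, at 672 to 842, were above the controls at 424 to 467, and the call held without any single library. Flt3, the receptor that marks lymphoid-primed progenitors, had 393, 724, 837 and 1315 normalized counts in Mitol KO replicates 1 to 4 and 518, 712, 670 and 467 in control replicates 1 to 4. Mitol KO replicate 1 was the lowest Flt3 library of all and replicate 4 the highest (log2 fold change 0.45, SE 0.28, edgeR adjusted p = 0.337). Jak3, the kinase on the common chain, had a log2 fold change of 0.38 (edgeR adjusted p = 0.0754, DESeq2 adjusted p = 0.0320).

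In the list of early lymphoid progenitor genes, 13 of 17 had a row and 10 were tested, with 0 lower and a median log2 fold change of 0.06. Ccr9, a chemokine receptor of thymus-seeding cells, had 29.7, 27.02, 39.4 and 58.2 normalized counts in Mitol KO and 65.9, 76.6, 76.3 and 71.8 in control HSCs, so the groups did not overlap, with a log2 fold change of -0.94 (edgeR adjusted p = 0.0535). Rag1, Rag2 and Ly6d had no row, and Ighm had 0 normalized counts in every Mitol KO library and at most 7.18 in control HSCs. Beside these values stand the higher Thy1 and Nkg7, the lower Lat and the higher cell cycle genes given above, whose part in them was not tested. The T-cell markers tested besides Lck and Thy1 had estimates below 0, as given above.

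**Figure D4:**
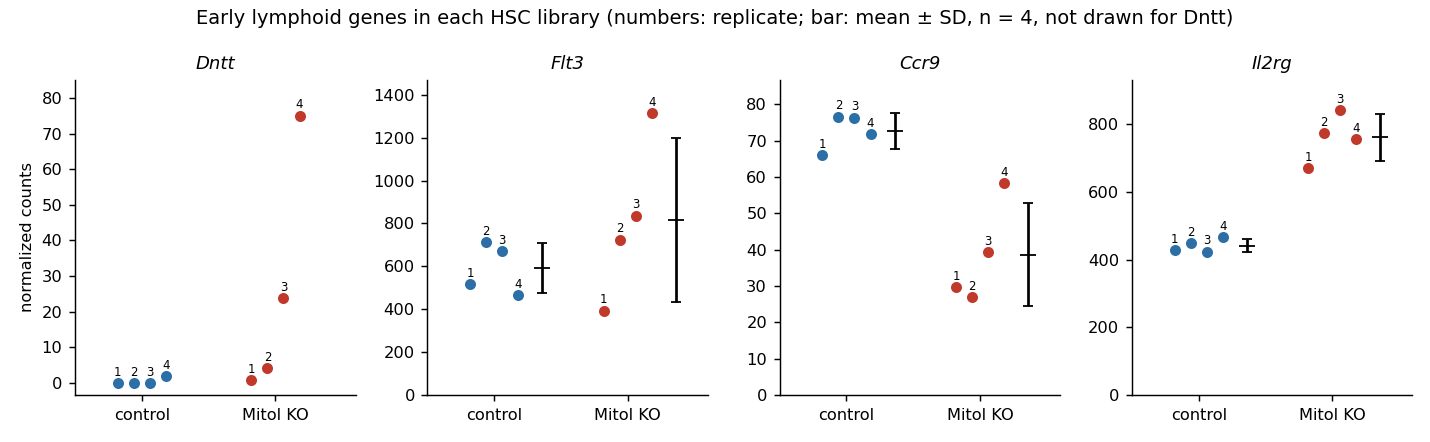
Normalized counts (y axis) of Dntt, Flt3, Ccr9 and Il2rg in each library, with replicate numbers and the mean ± SD (n = 4) for all but Dntt. Ccr9 and Il2rg separate the groups, at 27.02 to 58.2 against 65.9 to 76.6 and at 672 to 842 against 424 to 467, while Flt3 overlaps.

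Among the Ikaros family and the NuRD chromatin remodeller that Ikaros recruits, 15 of 16 genes were tested, with 1 higher, 0 lower and a median log2 fold change of 0.13. Gatad2a, a NuRD subunit, rose with a log2 fold change of 0.55 (SE 0.12, edgeR adjusted p = 0.0232). When each library was left out in turn, Gatad2a kept its call without Mitol KO replicates 3 and 4 and control replicates 1 and 3 and lost it without the other 4, with an adjusted p of up to 0.0757. Ikzf2, Ikzf4 and Ikzf5 had log2 fold changes of -0.03, -0.18 and -0.50 (edgeR adjusted p = 0.917, 0.456 and 0.415), and Ikzf3 had no row. Rbbp7, Mbd3 and Rbbp4, also NuRD subunits, had log2 fold changes of 0.51, 0.39 and 0.34 and did not pass the threshold by edgeR (adjusted p = 0.0567, 0.0575 and 0.0719), but did by DESeq2 (adjusted p = 0.0180, 0.0224 and 0.0353).

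Of 9 tested E proteins, ID inhibitors and their partners, 0 were higher and 2 lower, with a median log2 fold change of -0.06. Lmo2 and Ldb1, which bridge E protein and GATA factor complexes, fell by 0.34 and 0.32 on the log2 scale (edgeR adjusted p = 0.0496 and 0.0351). Both kept their calls only without Mitol KO replicate 4 when 1 library was left out. Lmo2 reached an edgeR adjusted p of 0.140 without Mitol KO replicate 3, and Ldb1 one of 0.107 without control replicate 2. With no filter on low counts neither was past the threshold (edgeR adjusted p = 0.0688 and 0.0517), nor was Lmo2 with RLE size factors (0.0566) or Ldb1 with the replicate block (0.0519). The E proteins Tcf12 and Tcf4 had log2 fold changes of -0.03 and -0.06 (edgeR adjusted p = 0.854 and 0.716). The inhibitor Id2 had 71.7 to 106 normalized counts in Mitol KO and 40.9 to 96.1 in control HSCs, and Id1 25.4 to 36.4 and 18.1 to 31.7.

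Of 8 tested B-lineage factors 0 were called, with a median log2 fold change of 0.03, and Ebf1, Pax5 and Pou2af1 had no row. Of 10 tested T-lineage factors 0 were higher and 1 lower, with a median log2 fold change of -0.11. Tox, a factor of T-cell and innate lymphoid development, fell by 0.86 on the log2 scale (SE 0.24, edgeR adjusted p = 0.0440), from 277 ± 92.0 to 155 ± 39.5 normalized counts. Its call held only without Mitol KO replicate 2 and without control replicate 1, and without control replicate 4, the highest library, the edgeR adjusted p was 0.120. With no filter on low counts it was 0.0518. Tcf7, a target of Notch signalling in early T cells, had 24.3 normalized counts or fewer in Mitol KO and 13.8 to 34.9 in control HSCs.

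In Notch signalling, 1 of 19 tested genes was higher and 2 were lower, with a median log2 fold change of 0.01. Adam10, the protease that cuts the receptor, rose by a log2 fold change of 0.34 (SE 0.09, edgeR adjusted p = 0.0326). Maml2, a coactivator, fell by 0.48 and the receptor Notch2 by 0.29 on the log2 scale (SE 0.11 and 0.08, edgeR adjusted p = 0.0220 and 0.0440). Notch1 and Notch2 thus had estimates of opposite sign, and Notch2 had 5111 to 5984 normalized counts in Mitol KO and 6378 to 7192 in control HSCs. Left out in turn, most libraries ended these calls. Adam10 kept its call only without Mitol KO replicate 4 or control replicate 1 (up to 0.0911), Maml2 only without Mitol KO replicate 4 or control replicates 1 or 4 (up to 0.0742), and Notch2 only without Mitol KO replicate 4 (up to 0.143 without Mitol KO replicate 3), all by edgeR. Upper quartile scaling also ended the call of Adam10 (edgeR adjusted p = 0.0526), and RLE size factors or no filter ended that of Notch2 (edgeR adjusted p = 0.0539 and 0.0716). The Notch target Hes1 had 4.70 to 20.1 normalized counts in Mitol KO and 4.49 to 38.6 in control HSCs, and the targets Hey1 and Nrarp did not pass the filter.

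**Figure D5:**
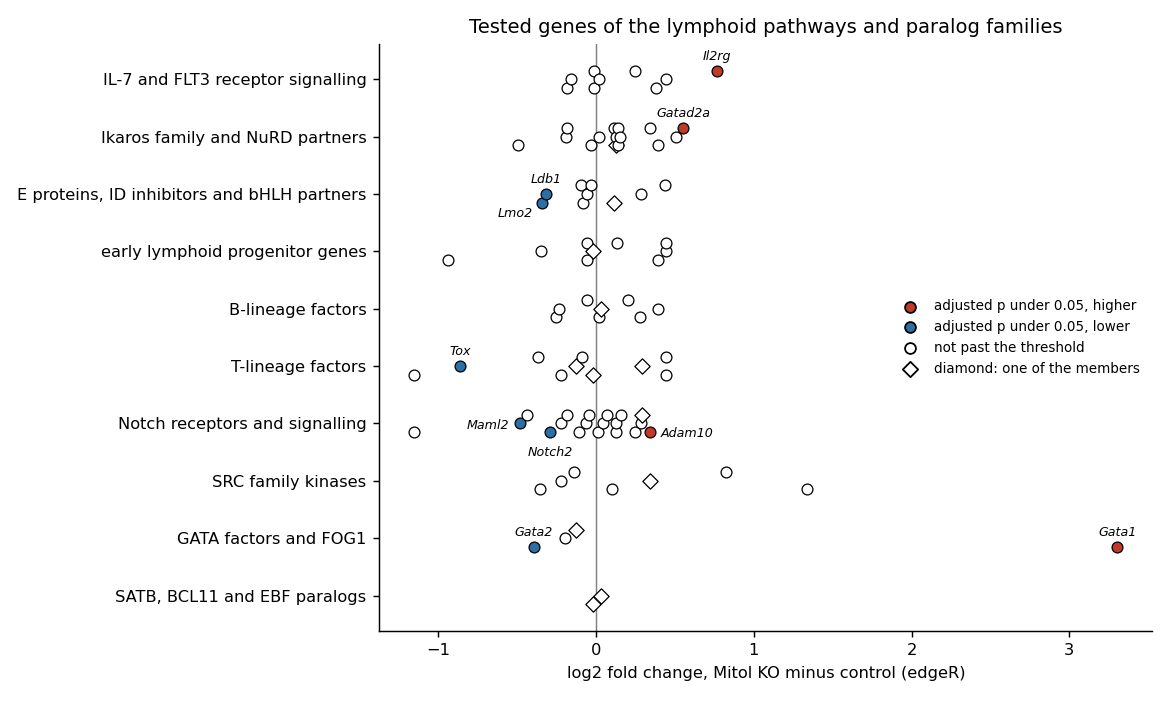
Log2 fold changes (x axis, Mitol KO minus control, edgeR) of the tested genes reported here, 1 row of points per list, with filled points for an adjusted p under 0.05 (red higher, blue lower) and diamonds for members. The filled points are Il2rg, Gatad2a, Adam10 and Gata1 (higher) and Lmo2, Ldb1, Tox, Maml2, Notch2 and Gata2 (lower), while all diamonds are open.

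Of the relatives of Lck, 7 of 8 SRC family kinases were tested and 0 were called, with a median log2 fold change of 0.10. Fgr, a myeloid member, had 21.1, 30.1, 52.2 and 98.4 normalized counts in Mitol KO and 10.6, 25.5, 18.8 and 22.5 in control HSCs (log2 fold change 1.34, edgeR adjusted p = 0.0979, DESeq2 adjusted p = 0.0453). Fyn, the other kinase used by the T-cell receptor, and Lyn had log2 fold changes of 0.10 and -0.14 (edgeR adjusted p = 0.657 and 0.399).

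Of the relatives of Gata3, Gata1 rose with a log2 fold change of 3.30 (SE 0.45, edgeR adjusted p = 0.00381) and kept its call without any single library. Gata2, the GATA factor of HSCs, fell by 0.39 on the log2 scale (SE 0.09, edgeR adjusted p = 0.0287), with Mitol KO libraries at 3294 to 4318 and control libraries at 4533 to 4825 normalized counts. Its call held only without Mitol KO replicate 4 when 1 library was left out, and reached an adjusted p of 0.0848 without Mitol KO replicate 2. The list had 4 tested genes, 1 higher and 1 lower, and a median log2 fold change of -0.16.

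Of the relatives of Satb1, Bcl11a and Ebf1, 3 genes were tested, 2 of them members, and 0 were called, with a median log2 fold change of 0.03. Bcl11b, Ebf2 and Ebf3 had no row. Ebf4 did not pass the filter. Its normalized counts were 1.57, 1.04, 0.915 and 3.17 in Mitol KO and 6.59, 18.1, 10.4 and 11.7 in control HSCs, so the groups did not overlap, and the fit by edgeR with no filter gave an adjusted p of 0.0360.

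The 3 genes most like Notch1 over the 8 libraries were Pak2, Gps2 and Fam53c, at a root mean square difference of centred log2 CPM of 0.0521, 0.0690 and 0.0697, where the median over all genes was 0.337. None was past the threshold (edgeR adjusted p = 0.0760, 0.131 and 0.131). The 3 most like Lck were Eef1akmt4, Gm4707 and Sema7a, at 0.0397, 0.0538 and 0.0971 with a median of 0.367, and edgeR adjusted p of 0.462, 0.204 and 0.133. These likenesses are descriptions of 8 libraries.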

How the data were processed

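RNA was profiled in 8 libraries of 100 sorted HSCs, 4 Mitol KO and 4 control. The authors aligned single-end reads to mm39 (STAR), joined the alignments (SAMtools) and obtained a raw count for each gene (Subread), which are the deposited counts. The annotation and strand setting are not given in the sources used here. Of 23094 rows, 1029 carry no symbol (0.335% to 0.467% of a library's counts) and were left out. Symbols had been altered on export (a hyphen became a dot), and lists were matched accordingly. The GENCODE vM39 annotation on GRCm39 gave positions, exon lengths and promoters.

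The main test was that of edgeR 4.0.16 (glmQLFTest) after TMM scaling and filterByExpr at its defaults, with group as the sole term and Benjamini-Hochberg adjustment over all 16444 tested genes, at 0.05. This differs from the study's tool, DESeq2, which was run here (version 1.42.0) as an alternative with independent filtering off. To give normalized counts, each library was divided by its DESeq2 size factor. A single value was tested by exact permutation (2-sided, 70 arrangements). The likeness measure used log2 CPM with a prior count of 2.

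The members and gene lists were chosen with earlier results of these data known. Named genes are all members, Marchf5, genes of the pathway and paralog lists past the threshold, paralogs of members, the 3 genes most like each of the 2 tested members with the lowest p, and marker lists. Jak3, Flt3, Ccr9 and the other list genes named without a call were chosen after their values were seen. Alternatives were RLE and upper quartile scaling, no filter or a stricter one (2 CPM in 4 libraries), DESeq2, limma-voom (version 3.58.1), the replicate number as a block, each library left out, and another gene length. Some genes of the lists are not reported here, though list counts, sums and medians include them. The fits were tested on simulated data. Replicates of a group differed by more than counting noise (chi-square per degree of freedom at least 6.05), so none was treated as a repeat deposit of another. This does not show that they come from separate mice. Totals of 7214935 to 12398138 counts did not differ past the threshold between groups (exact permutation test, p = 0.200). Reads carry no molecular identifiers, so intervals on counts cover counting error only.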

Additional observations from a re-analysis of the deposited data

Results flagged for a closer look

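Of 60 groups of 4 libraries checked for a value set far apart from the other 3, 5 stood out, where chance flags about 1 in 20. Control replicate 4 had 1.80 normalized counts of Dntt while the other controls had 0, a gap of 2 raw counts. Control replicate 4 also stood apart for Tox, with 414 normalized counts against 250.1 in the next library. Mitol KO replicate 3 stood apart for Notch2, with 5111 against 5903, and Mitol KO replicate 4 for Gata2, with 4318 against 3433. Control replicate 2 had 4841 summed normalized counts of megakaryocyte markers against 3439 in the next control library.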

How the results depend on the processing

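Across other scalings, filters, tools and the replicate block, 0 of 7 tested members were past the threshold, except that DESeq2 called 1 (Notch1), and with no filter 1 of the 8 members with a row was called (Dntt). All genes past the threshold numbered 2283 with DESeq2. In the pathway and paralog lists, 11 genes were higher with DESeq2, against 5 in the reported fit, and 3 were lower with no filter, against 6. The cause of these shifts was not tested. Satb1 changed sign with no filter (0.0042) and with the replicate block (0.00085), and Bcl11a with upper quartile scaling (-0.026), all far inside their errors. With the longest transcript as length, control levels per kilobase were 794 for Bcl11a, 367 for Ikzf1, 255 for Notch1, 206 for Tcf3, 101 for Gata3, 64.7 for Lck and 45.8 for Satb1.

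With each library left out in turn, all genes past the threshold ranged from 359 (without control replicate 2) to 2501 (without Mitol KO replicate 4), list genes higher from 3 to 8 and lower from 0 to 7, members higher from 0 to 0, and the Dntt difference from 9.13 to 33.9. Satb1 ranged from -0.14 to 0.099 and changed sign in 4 of these fits, and Bcl11a ranged from -0.040 to 0.095 and changed sign in 2.

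Groups share replicate numbers, and the deviations of same-numbered libraries were hardly correlated (r from -0.0695 to 0.0800). Mitol KO replicates 1 and 3 were nevertheless matched best by the control of the same number. Whether the numbers pair the libraries is therefore not settled, and the main test used no pairing. The replicate block gave 1652 genes, 0 members, and 5 higher and 5 lower list genes. With 100 cells per library and 4 libraries a group, the precision for low genes such as Dntt is limited.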
